A study of Homo sapiens with 12 samples.

Results

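Solute carriers are the membrane proteins that move amino acids, sugars, ions, metals, vitamins and metabolites across the plasma membrane and the membranes of organelles. The genes described here are those whose symbol begins with SLC and a number, has no hyphen, and had a mean raw count of at least 200 over the 12 libraries, leaving out a pair of scaffold genes that carry old SLC9A3 symbols. The rule kept 103 of the 464 SLC genes in the table of 59410 genes. The other 361 lay under the threshold, 17 of them with no count in any library. PRO-seq measured nascent transcription in 6 groups of 2 libraries of T47D, a human breast cancer line that carries the estrogen receptor. PRO-seq labels RNA at the 3′ end of transcripts still held by polymerase and so reads transcription under way rather than stored RNA. Cells kept 3 days in complete medium received vehicle (0.1% DMSO by volume), 100 nM fulvestrant, 100 nM raloxifene or 100 nM tamoxifen. Cells starved of hormones for 3 days received vehicle or 1 nM estradiol, the natural hormone that binds the receptor. Every treatment lasted 1 h. Fulvestrant blocks the receptor and promotes its degradation, and raloxifene and tamoxifen are selective modulators of the receptor. All groups share a single cell line, and separate cultures behind a group's libraries are not stated in the labels, which means that p-values rest on a spread between libraries that may be technical.

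Growing epithelial cells take up essential amino acids largely through exchangers in which a light chain of the SLC7 family is held at the membrane by the heavy chain SLC3A2, take up glucose through carriers of the SLC2 family, and import carnitine for fatty acid oxidation through SLC22A5. Bicarbonate carriers of the SLC4 family and proton exchangers of the SLC9 family set intracellular pH. The SLC25 family carries nucleotides, cofactors and metabolites mainly across the inner mitochondrial membrane, the SLC11, SLC30, SLC39 and SLC40 families move iron, zinc and other metals, and the SLC35 family supplies nucleotide sugars to the Golgi and endoplasmic reticulum.

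Library totals ran from 3682311 to 7856803 counts, and the 103 genes together held between 0.926% and 0.997% of the counts of a library. Levels are given as CPM, the count scaled to a common library size after TMM scaling, always library 3 before library 4. All 9 luminal breast markers were detected, with a summed level of 3805 to 5687 CPM over the libraries. The 6 basal or mesenchymal markers summed to 9.95 to 15.7 CPM and the 7 blood, endothelial or fibroblast markers to 23.1 to 33.6 CPM. In a bulk sample such as these, fewer cells transcribing a gene and less transcription per cell cannot be told apart.

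By substrate, 16 of the genes belonged to carriers of amino acids and peptides, 16 to carriers of inorganic ions, including those that set pH, 14 to carriers of metal ions and heme, and 18 to the mitochondrial carrier family. A further 14 were SLC35 genes, 9 carried nucleosides, vitamins or cofactors, 6 organic ions and metabolites, and 6 sugars and polyols. There were 3 with another or uncertain substrate. SLC7A6OS met the rule by its name only, since it overlaps SLC7A6 and encodes no transporter. The members just inside the threshold included SLC19A2 with a mean raw count of 209, SLC1A4 with 205 and SLC66A3 with 201. Genes just outside it included SLC48A1 with 197, SLC24A1 with 195 and SLC25A46 with 193.

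The genes differed widely in transcription per length of gene. In complete medium with vehicle, the highest level per kb of annotated span was that of SLC40A1, the iron exporter ferroportin, with 15.9 ± 0.49 CPM per kb (SD, n = 2). SLC39A1, a zinc importer, followed with 14.8 ± 0.17 CPM per kb, and SLC38A2, a sodium-coupled importer of small neutral amino acids, with 13.0 ± 0.020. The gaps between these 3 genes were larger than their SDs, but SLC39A1 overlaps CREB3L4 and its level may hold reads of that gene. Lower levels per kb were those of SLC29A2, a nucleoside transporter, with 8.69 ± 0.31, SLC25A3, the mitochondrial phosphate carrier, with 6.32 ± 0.39, and SLC7A5, the light chain for large neutral amino acids, with 6.28 ± 0.99. SLC25A3 and SLC7A5 lay closer together than the SD of either. The heavy chain SLC3A2 stood at 5.35 ± 0.19 CPM per kb and SLC7A6OS at 4.51 ± 0.022. The lowest of the 102 genes with a RefSeq position was SLC25A21, a mitochondrial carrier of oxodicarboxylates with one of the longest spans, at 0.119 ± 0.0011 CPM per kb. The median was 1.92 CPM per kb for the SLC35 genes, 1.73 for carriers of amino acids and 0.937 for carriers of metal ions and heme, so the metal group held the highest pair of single genes and one of the lowest medians. The labels do not say whether reads were counted over the whole span, and these levels rest on that length.

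**Figure D1:**
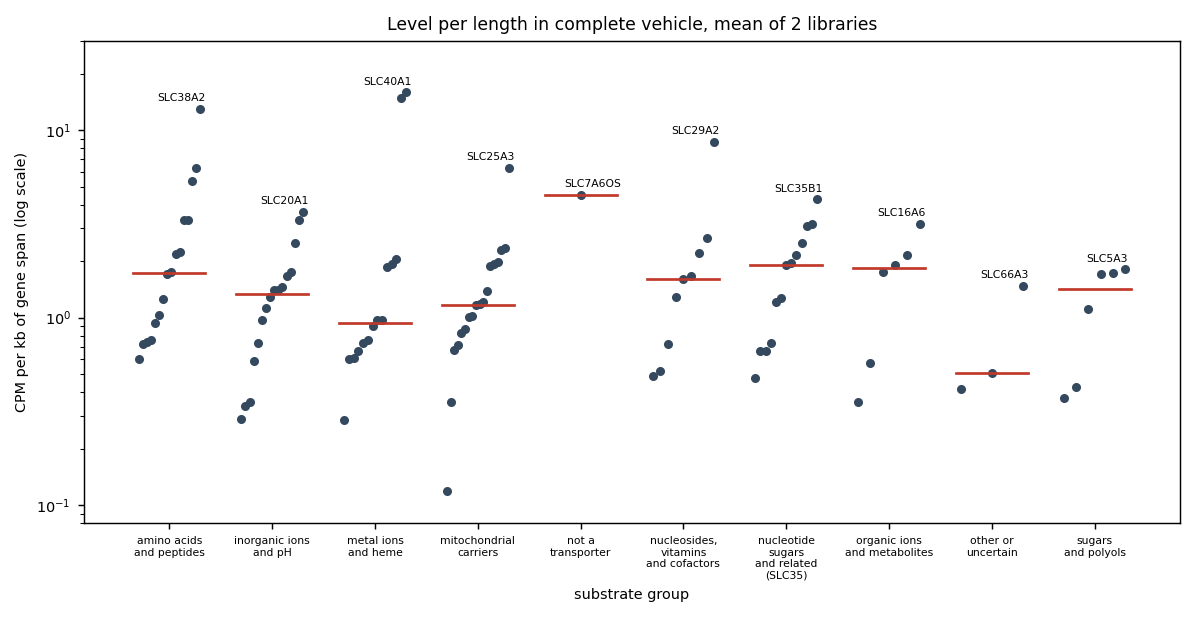
Level of 102 solute carrier genes in complete medium with vehicle, as CPM per kb of gene span on a log scale (mean of 2 libraries), by substrate group. Each point is a gene, the red line is the median of its group and the highest gene of each group is named. SLC40A1, SLC39A1 and SLC38A2 lie above all other genes, while the group medians lie between 0.506 and 1.92 CPM per kb apart from the single gene SLC7A6OS.

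Each comparison was made with the quasi-likelihood test of edgeR on the 23375 genes that passed its low-count filter, and a gene was called where its Benjamini-Hochberg adjusted p was under 0.05. All 103 members passed that filter, since the rule already asks for a high mean count. Such depth makes a difference easier to detect, so the share of members called is set beside the share of all tested genes and that of the 8055 genes with a mean count of at least 200. Fold changes are log2 values ± the standard error from the model. Estradiol for 1 h raised 19 of the 103 members and lowered 12, or 30.1%, where 8.77% of all tested genes were called (5.04% higher and 3.74% lower) and 17.6% of genes of like depth. Hormone starvation, set against complete medium, raised 13 and lowered 20, or 32.0%, where 18.8% of all tested genes (9.1% higher and 9.67% lower) and 33.2% of genes of like depth were called. The share of members called was thus above that of genes of like depth for estradiol and close to it for starvation, with no test made of either. The median log2 change over the members was 0.00 for estradiol and -0.01 for starvation, beside -0.01 and 0.01 over all tested genes. Fulvestrant lowered 3 members, and no member passed with raloxifene or tamoxifen. Some members did pass with these drugs when the low-count filter was left out or the library number was used as a block. Over these 5 comparisons with a vehicle group, 57 members passed none, 27 passed 1, 17 passed 2 and 2 passed 3. In every called difference the libraries of the 2 groups did not overlap. With 2 libraries a group, passing the threshold makes this likely, so it adds no support to the calls. The same share was not counted over all genes.

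**Figure D2:**
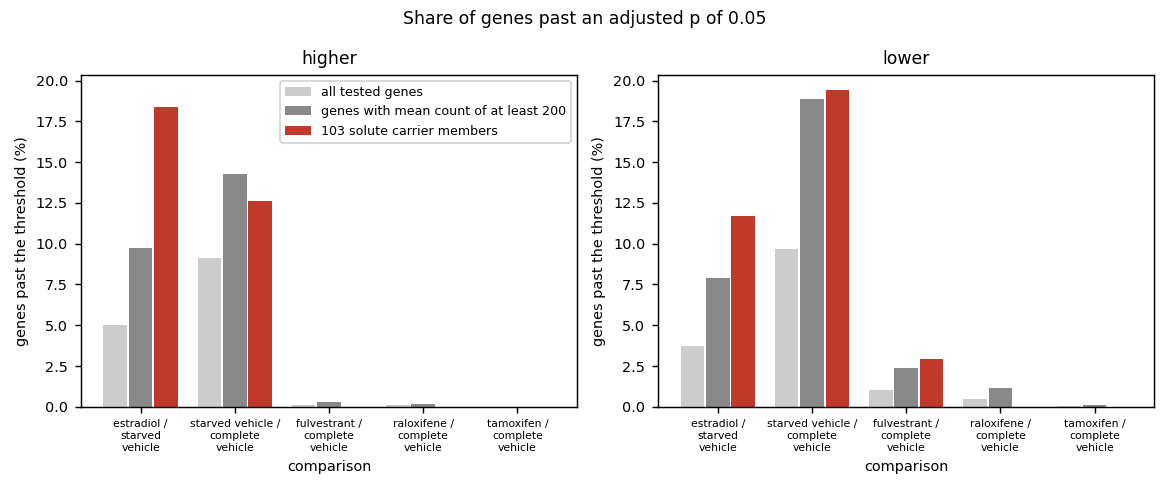
Share of genes higher (left) and lower (right) at an edgeR adjusted p under 0.05 in each comparison with a vehicle group, in percent, for all tested genes (light grey), the 8055 genes with a mean count of at least 200 (dark grey) and the 103 solute carrier genes (red). In the estradiol comparison the red bars, at 18.4% and 11.7%, stand above the dark grey bars at 9.71% and 7.88%, and in the starvation comparison they stand close to them.

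**Figure D3:**
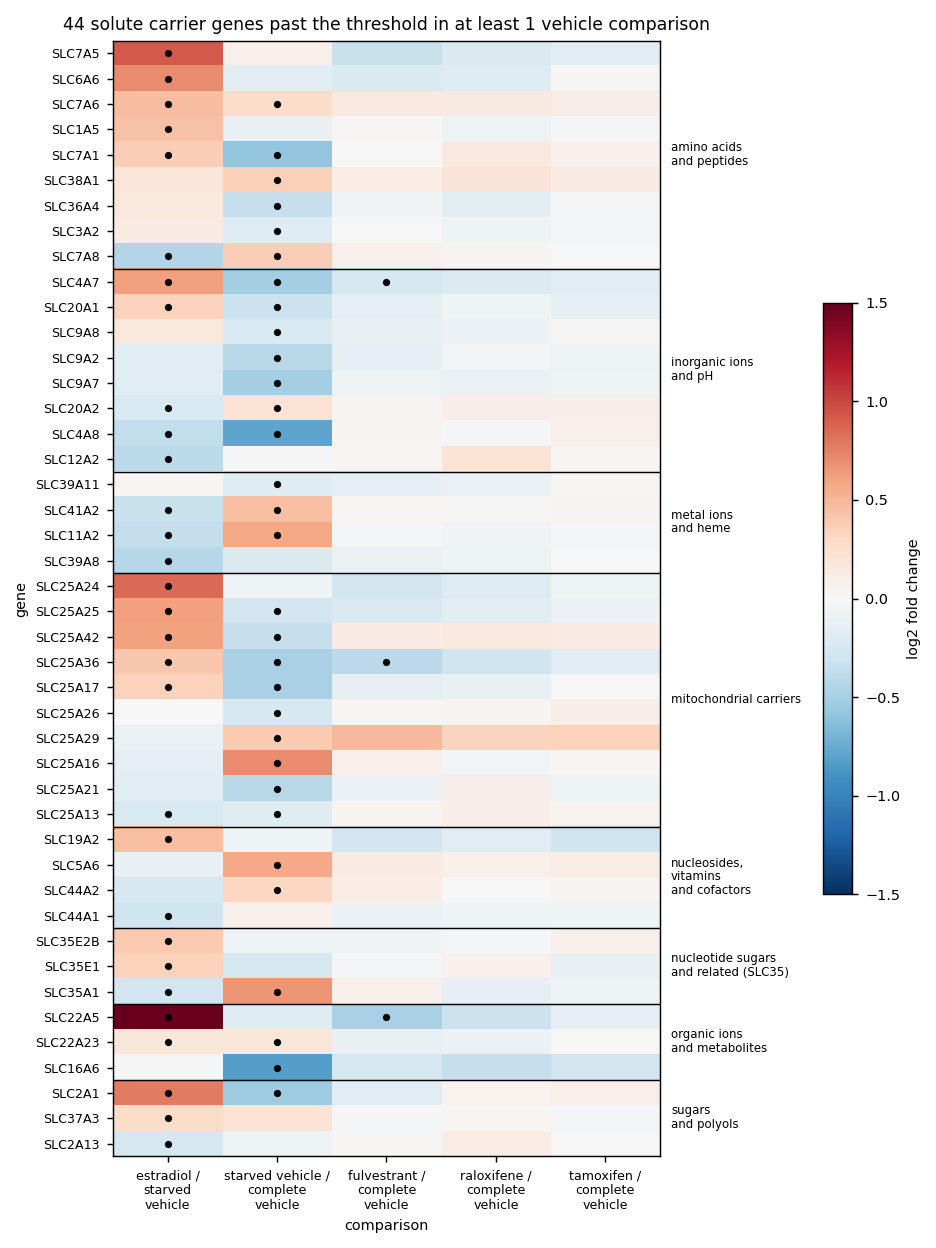
Log2 fold change of 44 of the 46 solute carrier genes past an edgeR adjusted p of 0.05 in at least 1 of the 5 comparisons with a vehicle group (columns), grouped by substrate and ordered by the estradiol change. Red is higher and blue lower in the first-named group, and a black dot marks a difference past the threshold. The strongest colour is that of SLC22A5 with estradiol, and the fulvestrant column holds 3 dots, while the raloxifene and tamoxifen columns hold none.

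The member that estradiol changed most was SLC22A5 (ENSG00000197375, chr5:132369710-132395612 in RefSeq GRCh38.p14), the sodium-dependent carnitine importer. It read 41.2 and 39.2 CPM in starved cells with vehicle and 112 and 120.0 CPM with estradiol, so both treated libraries stood far above both controls. The difference was log2 1.53 ± 0.085, edgeR adjusted p = 4.7e-11, and SLC22A5 was the only member changed at least 2-fold by estradiol. In complete medium it read 44.8 and 46.4 CPM with vehicle, close to the starved level, and starvation gave no call for it (log2 -0.18 ± 0.097, edgeR adjusted p = 0.23). The next largest rises were those of SLC7A5, SLC25A24, SLC2A1, SLC6A6 and SLC4A7, which are described with their groups. Around SLC22A5, its paralog SLC22A4, which lies 25.5 kb away and is known as an ergothioneine transporter, rose as well at a mean raw count of only 44.8 (log2 1.12 ± 0.20, edgeR adjusted p = 7.7e-04). The non-coding gene MIR3936HG, which overlaps SLC22A5, rose by less (log2 0.63 ± 0.095, edgeR adjusted p = 8.7e-05), and because the strand setting of the counts is not given, reads of overlapping genes may be shared between them.

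The upstream sequences of 6 members are printed to show what lay before the start sites of the genes that estradiol raised most and of those that fulvestrant lowered. They are the 250 bases before the outermost start in the RefSeq GRCh38.p14 promoter table, 5′ to 3′ in the direction of the gene: SLC22A5 at chr5:132369460-132369709 on the plus strand, SLC7A5 at chr16:87869508-87869757 on the minus strand, SLC25A24 at chr1:108200344-108200593 on the minus strand, SLC2A1 at chr1:42958869-42959118 on the minus strand, SLC4A7 at chr3:27484385-27484634 on the minus strand and SLC25A36 at chr3:140941586-140941835 on the plus strand. Capitals mark every match, on either strand, to the full estrogen response element, an inverted repeat with a spacer of 3 bases, to its single arm AGGTCA, the amino acid response element TGATGCAA, the E-box CACGTG, which MYC and other basic helix-loop-helix factors bind, and the SP motif GGGCGG.
SLC22A5: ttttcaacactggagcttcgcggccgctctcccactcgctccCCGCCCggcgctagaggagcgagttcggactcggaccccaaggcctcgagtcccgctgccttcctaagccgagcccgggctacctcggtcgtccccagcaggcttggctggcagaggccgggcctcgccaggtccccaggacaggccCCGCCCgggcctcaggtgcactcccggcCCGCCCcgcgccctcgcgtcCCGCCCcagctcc
SLC7A5: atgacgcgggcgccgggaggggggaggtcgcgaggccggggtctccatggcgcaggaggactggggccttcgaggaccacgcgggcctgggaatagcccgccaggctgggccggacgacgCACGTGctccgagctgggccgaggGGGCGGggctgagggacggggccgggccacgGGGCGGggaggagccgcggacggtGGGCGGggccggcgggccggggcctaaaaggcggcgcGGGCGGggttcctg
SLC25A24: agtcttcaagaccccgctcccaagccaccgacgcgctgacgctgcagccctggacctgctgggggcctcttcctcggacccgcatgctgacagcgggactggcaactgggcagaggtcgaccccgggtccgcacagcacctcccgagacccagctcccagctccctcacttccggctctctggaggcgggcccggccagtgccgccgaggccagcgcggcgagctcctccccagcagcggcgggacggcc
SLC2A1: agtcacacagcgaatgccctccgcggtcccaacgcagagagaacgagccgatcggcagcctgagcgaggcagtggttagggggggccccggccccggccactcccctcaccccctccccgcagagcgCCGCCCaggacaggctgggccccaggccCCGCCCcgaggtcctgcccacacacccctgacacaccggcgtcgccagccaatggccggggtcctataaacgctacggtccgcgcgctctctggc
SLC4A7: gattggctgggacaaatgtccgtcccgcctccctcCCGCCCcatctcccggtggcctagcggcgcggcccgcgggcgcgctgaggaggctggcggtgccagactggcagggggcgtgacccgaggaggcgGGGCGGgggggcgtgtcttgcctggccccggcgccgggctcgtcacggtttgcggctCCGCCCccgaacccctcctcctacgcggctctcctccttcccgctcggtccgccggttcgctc
SLC25A36: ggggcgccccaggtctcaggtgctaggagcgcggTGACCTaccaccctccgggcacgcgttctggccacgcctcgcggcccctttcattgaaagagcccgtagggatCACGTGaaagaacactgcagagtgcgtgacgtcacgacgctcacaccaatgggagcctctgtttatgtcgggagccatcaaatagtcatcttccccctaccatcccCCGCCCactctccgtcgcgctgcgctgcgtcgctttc
Upstream of SLC22A5 the capitals are 4 SP motifs, and upstream of SLC7A5 they are an E-box, from base -130 to -125 before the start site, and 4 SP motifs. SLC2A1 held 2 SP motifs and SLC4A7 held 3. SLC25A36 held a single arm from -216 to -211, an E-box and an SP motif, and SLC25A24 held none of the 5 motifs. None of the 6 held the full estrogen response element. A match is a run of letters and not a measured binding site, and distant enhancers lie outside these windows.

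Across the promoter table, 85 of the 103 members were matched, with 129 promoters of 300 bases (250 before and 50 after the start site). The full estrogen response element occurred in 0 of the 129, beside 0.057% of all 35116 promoters, and its single arm in 10.1% beside 13.8%. The single arm was found in 3 of the 24 promoters of members that estradiol raised and in 2 of the 20 promoters of members it lowered. The E-box occurred in 13.2% of member promoters and 7.26% of all promoters, and in 4 of the 24 promoters of raised and 5 of the 20 of lowered members. The SP motif occurred in 83 of the 129 member promoters (64.3%) and in 15786 of all 35116. The amino acid response element, which the stress-induced factor ATF4 binds, occurred in 1.55% beside 0.866%. The set of all promoters was not limited to genes with a mean count of at least 200, as the members were. Whether these shares differ from those of genes of like depth was not tested. The single arm shares the letters GGTCA with the full element, so a full element with a preceding A also counts as a single arm.

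Among carriers of amino acids and peptides, estradiol raised 5 of 16 and lowered 1, or 37.5%, beside 8.77% of all tested genes and 17.6% of genes of like depth. The exchanger light chain SLC7A5 (ENSG00000103257, chr16:87830023-87869507) read 267 and 258 CPM with vehicle and 536 and 458 CPM with estradiol. Both estradiol libraries lay well above the 8 libraries grown in complete medium too, whose values ran from 196 to 275 CPM. The rise was log2 0.92 ± 0.078, edgeR adjusted p = 3.0e-08. Its partner SLC3A2, which forms the heterodimer with SLC7 light chains, read 155 and 150.4 CPM and 169 and 163 CPM and did not pass (log2 0.12 ± 0.061, edgeR adjusted p = 0.31). The other light chains went in different directions.

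SLC7A6, the light chain that exchanges cationic for neutral amino acids, read 80.6 and 76.6 CPM with vehicle and rose to 111 and 106 CPM (log2 0.46 ± 0.079, edgeR adjusted p = 3.8e-04). SLC7A6OS, which overlaps it, differed by log2 0.01 ± 0.083, edgeR adjusted p = 0.98. SLC7A8, a light chain for neutral amino acids of all sizes, fell from 72.6 and 67.8 CPM to 55.2 and 48.2 CPM (log2 -0.44 ± 0.085, edgeR adjusted p = 0.0014) and was the only amino acid carrier that did so. The light chains that share the partner SLC3A2 were thus called in both directions. SLC6A6, the taurine importer, read 177 and 170.4 CPM and then 302 and 265 CPM (log2 0.71 ± 0.079, edgeR adjusted p = 1.9e-06). SLC1A5, the neutral amino acid exchanger known for glutamine uptake, read 41.6 and 42.8 CPM and 62.7 and 51.1 CPM (log2 0.44 ± 0.10, edgeR adjusted p = 0.0067). SLC7A1, the importer of arginine and lysine, read 40.8 and 41.8 CPM and 54.8 and 52.0 CPM (log2 0.37 ± 0.11, edgeR adjusted p = 0.030). In all 5 raised genes both estradiol libraries lay above both vehicle libraries, and the gap was narrowest, relative to its level, for SLC1A5 and SLC7A1. The 10 carriers that did not pass included the sodium-coupled importers SLC38A1 (log2 0.18 ± 0.074, edgeR adjusted p = 0.18) and SLC38A2 (log2 0.07 ± 0.10, edgeR adjusted p = 0.79).

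**Figure D4:**
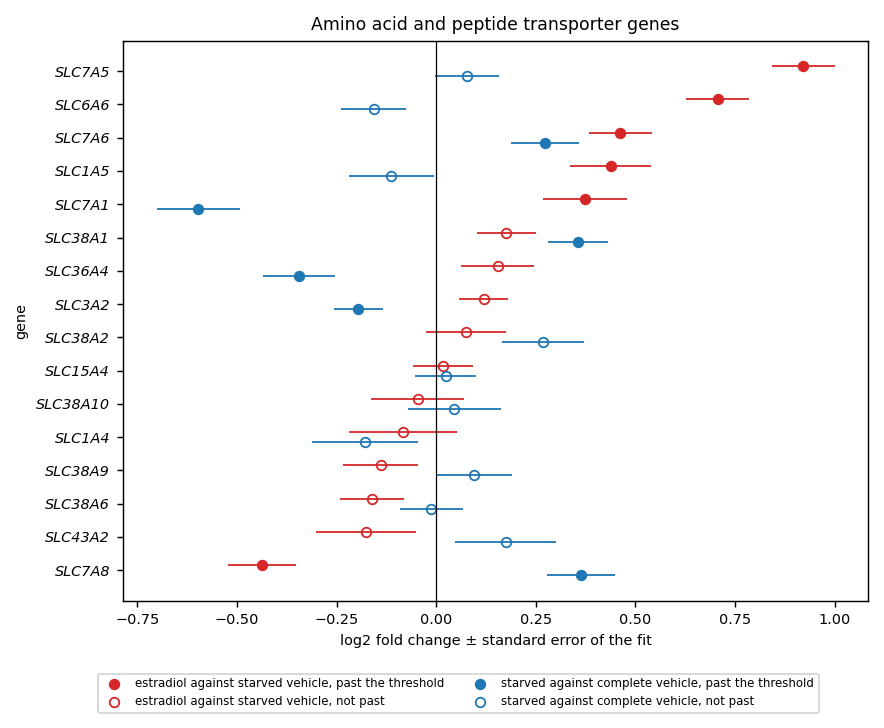
Log2 fold change with its standard error for the 16 amino acid and peptide carriers, for estradiol against starved vehicle (red) and starved against complete vehicle (blue). Filled points passed an edgeR adjusted p of 0.05. Both comparisons use the starved vehicle libraries. SLC7A5 and SLC6A6 lie farthest to the right for estradiol, and SLC7A8 and SLC7A1 have filled points on opposite sides of zero.

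Among sugar carriers, SLC2A1, the glucose carrier of most proliferating cells (ENSG00000117394, chr1:42925353-42958868), read 43.5 and 35.5 CPM with starved vehicle and 69.8 and 66.3 CPM with estradiol. Both values with estradiol were above every other library of the series, the highest of which was 63.2 CPM. It rose by log2 0.78 ± 0.098, edgeR adjusted p = 8.1e-06. SLC37A3, of the sugar phosphate exchanger family, rose by less (log2 0.27 ± 0.073, edgeR adjusted p = 0.021), and SLC2A13, the proton-coupled carrier of inositol, fell (log2 -0.27 ± 0.075, edgeR adjusted p = 0.027). The other 3 of the 6 sugar carriers did not pass. SLC22A23, a member of the organic ion family with no settled substrate, rose slightly with estradiol (log2 0.17 ± 0.052, edgeR adjusted p = 0.042), and with SLC22A5 it made up the 2 organic ion carriers of 6 that passed.

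In the mitochondrial carrier family, estradiol raised 5 of 18 and lowered 1, or 33.3%, beside 8.77% of all tested genes and 17.6% of genes of like depth. The largest rise was in SLC25A24 (ENSG00000085491, chr1:108134043-108200343), which exchanges ATP-magnesium for phosphate under the control of calcium and read 65.6 and 62.7 CPM with vehicle and 116 and 115 CPM with estradiol (log2 0.85 ± 0.096, edgeR adjusted p = 2.1e-06). SLC25A25, a carrier of the same kind, read 79.8 and 74.8 CPM and 118 and 118 CPM (log2 0.61 ± 0.065, edgeR adjusted p = 9.8e-07). The 2 libraries of each group lay close together for both of these genes. SLC25A42, a carrier of coenzyme A, read 41.4 and 37.3 CPM and 61.0 and 58.6 CPM (log2 0.60 ± 0.11, edgeR adjusted p = 6.0e-04). Its estradiol libraries were also clear of the controls. SLC25A36, a carrier of pyrimidine nucleotides, rose by log2 0.40 ± 0.086, edgeR adjusted p = 0.0036. SLC25A17, the peroxisomal member of the family, rose by log2 0.35 ± 0.087, edgeR adjusted p = 0.013. The one that fell was SLC25A13, the aspartate-glutamate carrier (log2 -0.23 ± 0.066, edgeR adjusted p = 0.031). The mitochondrial phosphate carrier SLC25A3 did not pass (log2 0.12 ± 0.082, edgeR adjusted p = 0.49).

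The carriers of inorganic ions were split, with 2 of 16 higher and 4 lower after estradiol. This is 37.5%, beside 8.77% of all tested genes and 17.6% of genes of like depth. SLC4A7, a sodium-bicarbonate cotransporter that raises intracellular pH (ENSG00000033867, chr3:27372723-27484384), read 196 and 198 CPM and 289 and 316 CPM (log2 0.62 ± 0.059, edgeR adjusted p = 1.8e-07). SLC20A1, a sodium-phosphate importer, rose (log2 0.35 ± 0.084, edgeR adjusted p = 0.0093), whereas its paralog SLC20A2 fell (log2 -0.22 ± 0.054, edgeR adjusted p = 0.0095). So the 2 phosphate importers of this family were called in opposite directions, and both calls were lost with DESeq2. SLC12A2, the sodium-potassium-chloride importer, fell (log2 -0.39 ± 0.11, edgeR adjusted p = 0.036), and so did SLC4A8, a sodium-driven chloride-bicarbonate exchanger (log2 -0.37 ± 0.090, edgeR adjusted p = 0.0090). The bicarbonate carriers SLC4A7 and SLC4A8 therefore also differed in direction. SLC24A3, an exchanger of sodium for calcium and potassium and the member with the highest mean raw count (3566), did not pass (log2 0.15 ± 0.054, edgeR adjusted p = 0.094).

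None of the 14 carriers of metal ions and heme rose with estradiol, and 3 fell. This is 21.4% called, beside 8.77% of all tested genes and 17.6% of genes of like depth (9.71% higher and 7.88% lower). SLC11A2, the proton-coupled importer of ferrous iron, fell from 223 and 222 CPM to 175 and 173 CPM (log2 -0.36 ± 0.055, edgeR adjusted p = 9.9e-05). SLC39A8, an importer of zinc and manganese, read 54.6 and 43.1 CPM and 35.3 and 37.4 CPM (log2 -0.43 ± 0.12, edgeR adjusted p = 0.022), with vehicle libraries farther apart than those of SLC11A2. The call of SLC39A8 was lost with DESeq2. SLC41A2, a magnesium transporter, fell from 127 and 132 CPM to 99.5 and 106 CPM (log2 -0.34 ± 0.080, edgeR adjusted p = 0.0082). The iron exporter SLC40A1, which had the highest level per length, did not pass (log2 0.11 ± 0.090, edgeR adjusted p = 0.57).

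Of the 9 carriers of nucleosides, vitamins and cofactors, 1 rose and 1 fell with estradiol. This is 22.2%, beside 8.77% of all tested genes and 17.6% of genes of like depth. SLC19A2, a thiamine importer, read 32.8 and 34.9 CPM and 42.8 and 50.2 CPM (log2 0.45 ± 0.11, edgeR adjusted p = 0.0072), and SLC44A1, a choline transporter, fell (log2 -0.29 ± 0.059, edgeR adjusted p = 0.0020). Of the 14 SLC35 genes, SLC35E1 rose (log2 0.35 ± 0.092, edgeR adjusted p = 0.018), and SLC35E2B rose (log2 0.39 ± 0.088, edgeR adjusted p = 0.0050), although the latter has a near-identical copy in SLC35E2A and its counts are uncertain. SLC35A1, which brings CMP-sialic acid into the Golgi, fell from 79.5 and 80.1 CPM to 65.5 and 65.6 CPM (log2 -0.28 ± 0.076, edgeR adjusted p = 0.019). The annotated span of the genes differed between the called sets, with a median of 39.5 kb for the 19 raised members and 115 kb for the 12 lowered members, beside 53.8 kb for those that did not pass. What part gene length has in these calls was not tested.

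These counts of members depended on single libraries and on the tool, and DESeq2 called 12 members higher and 4 lower. Without starved vehicle library 3 estradiol raised 12 members and lowered 4, and without starved vehicle library 4 it raised 11 and lowered 4. Without estradiol library 3 it lowered 4 and without estradiol library 4 it lowered 5. Over all 8 alternative analyses, 9 of the 19 raised members kept their call, namely SLC22A5, SLC7A5, SLC25A24, SLC2A1, SLC6A6, SLC4A7, SLC25A25, SLC25A42 and SLC7A6. Of the 12 lowered members, SLC11A2 and SLC7A8 kept theirs.

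**Figure D5:**
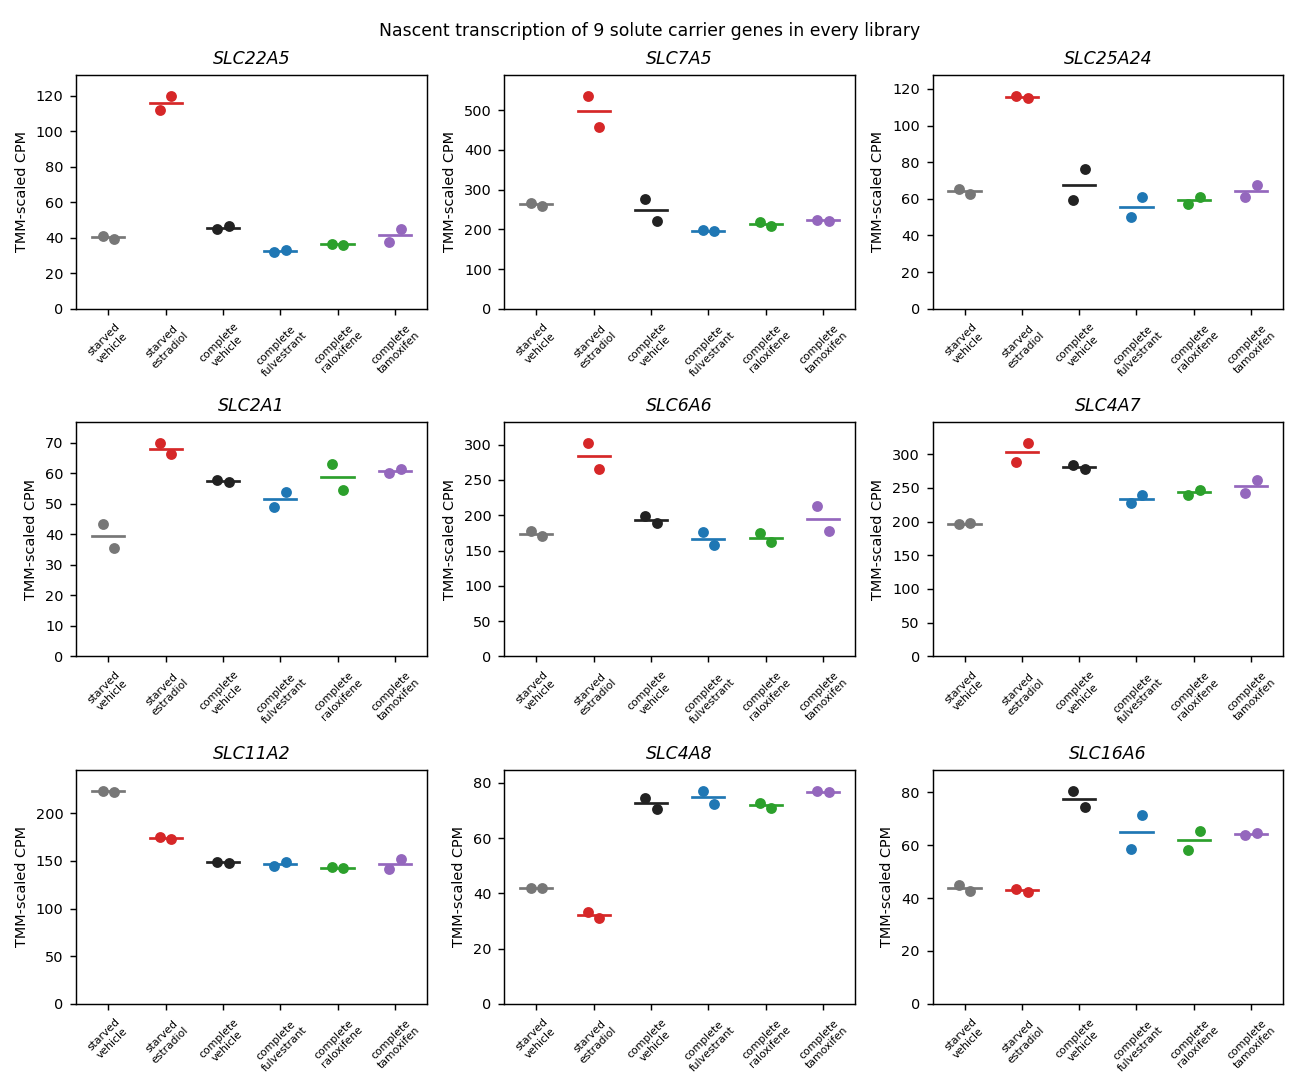
TMM-scaled CPM of 9 solute carrier genes in each of the 12 libraries (points, 2 per group) with the group mean (line), all axes starting at 0. The top 6 genes are highest with estradiol, SLC11A2 is highest in starved vehicle, and SLC4A8 and SLC16A6 are lower in both starved groups than in the 4 complete-medium groups.

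The comparison of starved with complete medium, both with vehicle, asks what 3 days without hormone changed. The largest falls were in SLC16A6, a monocarboxylate transporter family member, and SLC4A8. SLC16A6 read 80.5 and 74.5 CPM in complete medium and 45.1 and 42.5 CPM in starved cells (log2 -0.83 ± 0.094, edgeR adjusted p = 1.7e-06). Estradiol for 1 h left it at 43.6 and 42.2 CPM (log2 -0.03 ± 0.10, edgeR adjusted p = 0.93), so both starved groups lay below all 8 libraries grown in complete medium. SLC16A6 overlaps the annotation of ARSG, an arylsulfatase gene, which fell as well (log2 -0.46 ± 0.059, edgeR adjusted p = 6.8e-06). SLC4A8 read 74.6 and 70.7 CPM in complete medium and 42.0 and 41.8 CPM in starved cells (log2 -0.80 ± 0.079, edgeR adjusted p = 2.6e-07). The gene GALNT6, which overlaps SLC4A8, fell by a similar amount (log2 -0.73 ± 0.080, edgeR adjusted p = 8.5e-07), and without the strand setting the reads of such pairs cannot be told apart.

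Among the ion carriers, starvation raised 2 of 16 and lowered 6, or 50%, beside 18.8% of all tested genes and 33.2% of genes of like depth. The exchangers SLC9A7 and SLC9A8, which act in organelles, fell by 0.51 and 0.23 on the log2 scale (edgeR adjusted p = 8.4e-06 and 0.026), and SLC9A2, an epithelial sodium-proton exchanger, fell as well (log2 -0.41 ± 0.064, edgeR adjusted p = 8.1e-05). The call of SLC9A8 was lost without the low-count filter and with DESeq2. SLC4A7 fell from 283 and 278 CPM to 196 and 198 CPM (log2 -0.51 ± 0.059, edgeR adjusted p = 1.9e-06). Of the phosphate importers, SLC20A1 was lower (log2 -0.33 ± 0.085, edgeR adjusted p = 0.0092) and SLC20A2 higher (log2 0.22 ± 0.054, edgeR adjusted p = 0.0070). Both calls were lost with DESeq2. Signs opposite to those with estradiol are in part built in, since both comparisons use the starved vehicle libraries.

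In the mitochondrial carrier family starvation raised 2 of 18 and lowered 8, where 9.67% of all tested genes and 18.9% of genes of like depth were lower. SLC25A36 read 74.1 and 77.4 CPM in complete medium and 58.4 and 49.8 CPM in starved cells (log2 -0.48 ± 0.086, edgeR adjusted p = 3.6e-04), and SLC25A17 fell by a like amount (log2 -0.48 ± 0.086, edgeR adjusted p = 3.2e-04). SLC25A21, SLC25A42, SLC25A25, SLC25A26 and SLC25A13 also fell, by 0.41, 0.34, 0.28, 0.24 and 0.19 on the log2 scale. The calls of SLC25A42, SLC25A26 and SLC25A13 were lost without TMM scaling and with DESeq2, and that of SLC25A25 with DESeq2. Those of SLC25A26 and SLC25A13 were also lost without the low-count filter. Over the 8 alternatives, which include leaving out single libraries, the log2 change ran from -0.48 to -0.15 for SLC25A42. It ran from -0.35 to -0.14 for SLC25A26 and from -0.20 to -0.16 for SLC25A13. SLC25A26 imports S-adenosylmethionine into mitochondria. The largest rise of any member was in SLC25A16, a carrier linked to coenzyme A, from 90.0 and 96.9 CPM to 156 and 148 CPM (log2 0.71 ± 0.075, edgeR adjusted p = 5.7e-07). SLC25A29, a mitochondrial carrier of basic amino acids, rose from 35.6 and 29.7 CPM to 42.3 and 44.1 CPM (log2 0.39 ± 0.12, edgeR adjusted p = 0.026), a call lost with DESeq2.

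Of the 16 amino acid carriers, 3 rose and 3 fell with starvation, or 37.5%, beside 18.8% of all tested genes and 33.2% of genes of like depth. SLC7A1 fell from 60.4 and 64.8 CPM to 40.8 and 41.8 CPM (log2 -0.60 ± 0.10, edgeR adjusted p = 2.8e-04), and SLC36A4, an importer of amino acids such as tryptophan and proline, fell too (log2 -0.34 ± 0.091, edgeR adjusted p = 0.010). The heavy chain SLC3A2 fell slightly (log2 -0.20 ± 0.062, edgeR adjusted p = 0.030), a call lost without the low-count filter and with DESeq2. SLC38A1 rose from 286 and 282 CPM to 364 and 363 CPM (log2 0.36 ± 0.075, edgeR adjusted p = 0.0018). The light chains SLC7A8 (log2 0.36 ± 0.085, edgeR adjusted p = 0.0040) and SLC7A6 (log2 0.27 ± 0.086, edgeR adjusted p = 0.030) rose, and SLC7A5 did not pass (log2 0.08 ± 0.081, edgeR adjusted p = 0.59). The fall of SLC7A1 kept its call in all 8 alternatives. The rise of SLC7A8 was lost in 1 of them, without starved vehicle library 3. That of SLC7A6 was lost in 4, with DESeq2 and without starved vehicle library 3, starved vehicle library 4 or complete vehicle library 3, and the last left it at 0.17 on the log2 scale.

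Metal carriers showed 2 higher and 1 lower of 14, or 21.4%, beside 18.8% of all tested genes and 33.2% of genes of like depth. SLC11A2 rose from 149 and 148 CPM to 223 and 222 CPM (log2 0.59 ± 0.056, edgeR adjusted p = 1.5e-07), and SLC41A2 rose (log2 0.45 ± 0.082, edgeR adjusted p = 4.2e-04), while SLC39A11, a zinc transporter, fell slightly (log2 -0.19 ± 0.054, edgeR adjusted p = 0.018). The call of SLC39A11 was lost without the low-count filter and with DESeq2. SLC5A6, the importer of biotin and pantothenate, rose from 34.4 and 35.8 CPM to 53.6 and 49.99 CPM (log2 0.57 ± 0.10, edgeR adjusted p = 4.5e-04). SLC44A2, a choline transporter family member, rose as well (log2 0.31 ± 0.077, edgeR adjusted p = 0.0061). SLC35A1 rose from 49.8 and 50.9 CPM to 79.5 and 80.1 CPM (log2 0.67 ± 0.080, edgeR adjusted p = 3.0e-06), and it was the only called SLC35 gene of 14. The glucose carrier SLC2A1, at 57.7 and 57.2 CPM in complete medium, fell (log2 -0.54 ± 0.10, edgeR adjusted p = 5.6e-04) and was the only called sugar carrier of 6. SLC22A23 rose by 0.18 on the log2 scale (edgeR adjusted p = 0.020). DESeq2 called 8 members higher and 11 lower in this comparison. The edgeR counts also moved with single libraries: without starved vehicle library 3, 8 members rose, and 10 fell without starved vehicle library 4 and 13 without complete vehicle library 3. Over the 8 alternatives, 7 of the 13 rises and 10 of the 20 falls kept their call. Among these were the rises of SLC25A16, SLC35A1, SLC11A2, SLC5A6, SLC41A2 and SLC38A1 and the falls of SLC4A8, SLC16A6, SLC2A1, SLC7A1, SLC4A7, SLC9A7, SLC9A2, SLC25A36 and SLC25A17. Without complete vehicle library 3 the change of SLC25A42 shrank to -0.15 on the log2 scale, and without starved vehicle library 4 that of SLC25A26 shrank to -0.14, and neither passed.

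The estradiol and starvation comparisons share the starved vehicle libraries, so an opposite sign in them is in part built in and is given only as values. There were 8 members higher with estradiol and lower with starvation: SLC2A1, SLC4A7, SLC7A1, SLC20A1, SLC25A17, SLC25A25, SLC25A36 and SLC25A42. There were 6 lower with estradiol and higher with starvation, among them SLC7A8, SLC11A2, SLC20A2, SLC35A1 and SLC41A2. The same direction was called in both for SLC7A6 and SLC22A23, which were higher, and for SLC4A8 and SLC25A13, which were lower. None of these 4 genes kept both calls with DESeq2. It lost both for SLC22A23 and SLC25A13, the estradiol call for SLC4A8 and the starvation call for SLC7A6. Another 9 rose and 4 fell with estradiol and did not pass with starvation, among them SLC22A5, SLC7A5 and SLC25A24. A further 5 rose and 10 fell with starvation and did not pass with estradiol, among them SLC25A16 and SLC16A6. The difference between the 2 effects was not tested for these genes.

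Estradiol-treated starved cells were also set directly against complete medium with vehicle, which differ in both medium and ligand. Of the members, 22 were higher and 17 lower, or 37.9%, where 16.2% of all tested genes (8.09% higher and 8.11% lower) and 29.2% of genes of like depth were called. SLC22A5 (log2 1.34 ± 0.087, edgeR adjusted p = 9.6e-10) and SLC7A5 (log2 1.00 ± 0.079, edgeR adjusted p = 1.8e-08) were above the complete-medium level. SLC25A24 (log2 0.79 ± 0.099, edgeR adjusted p = 7.6e-06) and SLC7A6 (log2 0.74 ± 0.084, edgeR adjusted p = 2.3e-06) were above it as well. The largest deficit was in SLC4A8, at 33.3 and 31.2 CPM against 74.6 and 70.7 CPM (log2 -1.17 ± 0.085, edgeR adjusted p = 5.4e-09). It was followed by SLC16A6 (log2 -0.86 ± 0.097, edgeR adjusted p = 2.1e-06), SLC9A7 (log2 -0.68 ± 0.069, edgeR adjusted p = 3.9e-07), SLC39A8 (log2 -0.65 ± 0.12, edgeR adjusted p = 5.0e-04) and SLC9A2 (log2 -0.58 ± 0.067, edgeR adjusted p = 2.6e-06). For SLC2A1 the difference did not pass (log2 0.24 ± 0.096, edgeR adjusted p = 0.094), nor for SLC4A7 (log2 0.11 ± 0.058, edgeR adjusted p = 0.25). Without complete vehicle library 4, 14 members were higher and 8 lower, and without complete vehicle library 3 or estradiol library 4, 10 were lower. DESeq2 called 12 higher and 8 lower.

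Fulvestrant for 1 h lowered 3 members and raised none, or 2.91%, where 1.16% of all tested genes (0.107% higher and 1.05% lower) and 2.67% of genes of like depth were called. The share of members is therefore near that of genes of like depth. At an unadjusted p under 0.05 there were 16 members. SLC22A5 fell from 44.8 and 46.4 CPM with vehicle to 32.1 and 32.9 CPM with fulvestrant (log2 -0.49 ± 0.10, edgeR adjusted p = 0.016). SLC25A36 fell from 74.1 and 77.4 CPM to 55.1 and 60.6 CPM (log2 -0.39 ± 0.088, edgeR adjusted p = 0.027). SLC4A7 fell from 283 and 278 CPM to 227 and 239 CPM (log2 -0.27 ± 0.059, edgeR adjusted p = 0.022). All 3 were also among the 19 members (18.4%) raised by estradiol in starved cells, a comparison that shares no library with this one. How many of all genes lowered by fulvestrant were raised by estradiol was not counted. All 3 calls were lost with DESeq2 and whenever 1 of the 4 libraries compared was left out, and they were kept in the other 3 alternatives. Without complete vehicle library 3, fulvestrant library 3 or fulvestrant library 4 no member was lower, and without complete vehicle library 4 the 1 member lower was SLC7A5, as it was with DESeq2. Without fulvestrant library 4, SLC38A2 and SLC25A29 were higher. EdgeR without its low-count filter called 2 higher and 5 lower, and with the library number as a replicate block 3 higher and 6 lower. SLC7A5 just missed the threshold, with 275 and 220.3 CPM and then 197 and 196 CPM (log2 -0.34 ± 0.084, edgeR adjusted p = 0.052), and so did SLC25A29 on the higher side (log2 0.49 ± 0.12, edgeR adjusted p = 0.056).

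Raloxifene changed no member in the edgeR fit of all 12 libraries with the low-count filter and no block, or by DESeq2. That edgeR fit called 0.569% of all tested genes (0.0898% higher and 0.479% lower) and 1.34% of genes of like depth. At an unadjusted p under 0.05 there were 15 members. The smallest adjusted p was that of SLC38A2, which read 189 and 189 CPM with vehicle and 270.0 and 236 CPM with raloxifene (log2 0.43 ± 0.10, edgeR adjusted p = 0.070). Both raloxifene libraries lay above both controls. SLC25A44, a mitochondrial carrier of branched-chain amino acids (log2 0.37 ± 0.099, edgeR adjusted p = 0.12), and SLC16A6 (log2 -0.35 ± 0.094, edgeR adjusted p = 0.13) came next. The genes that fulvestrant lowered did not pass with raloxifene, which gave log2 -0.32 ± 0.10, edgeR adjusted p = 0.25 for SLC22A5, log2 -0.30 ± 0.088, edgeR adjusted p = 0.19 for SLC25A36 and log2 -0.21 ± 0.059, edgeR adjusted p = 0.17 for SLC4A7. With the library number as a replicate block edgeR called 3 members higher, SLC38A2, SLC25A44 and SLC38A1, and 7 lower, among them SLC40A1, SLC16A6, SLC4A7, SLC7A5 and SLC25A36. Without raloxifene library 4, the shallowest library, SLC38A2 was higher and SLC40A1 lower, and without the low-count filter 1 was higher and 4 lower.

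Tamoxifen changed no member in the edgeR fit of all 12 libraries with the low-count filter and no block, or by DESeq2. That edgeR fit called 0.0513% of all tested genes (0.00428% higher and 0.0471% lower), and 12 members had an unadjusted p under 0.05. SLC38A2 again had the smallest adjusted p, at 262 and 227 CPM (log2 0.37 ± 0.10, edgeR adjusted p = 0.38). It read 267 and 212 CPM with fulvestrant (log2 0.35 ± 0.10, edgeR adjusted p = 0.18). All 6 drug libraries therefore lay above both complete vehicle libraries for SLC38A2, and how many of all genes do so was not counted. The 3 comparisons share those 2 controls. None of the 3 differences passed in the edgeR fit of all 12 libraries with the low-count filter and no block, or with DESeq2. All 3 passed without that filter and with the block. A level above these controls was not particular to the drugs. SLC38A2 was also called higher in estradiol-treated starved cells than in complete vehicle. That call was lost with DESeq2, and its log2 change ran from 0.17 to 0.51 over the 8 alternatives. For SLC22A5 tamoxifen gave log2 -0.15 ± 0.098, edgeR adjusted p = 0.85, with 1 of its libraries inside the range of the controls. SLC16A6 stood at 63.8 and 64.6 CPM with tamoxifen (log2 -0.28 ± 0.090, edgeR adjusted p = 0.59). With the replicate block SLC38A2 and SLC26A11 were higher and SLC40A1 lower, and without the low-count filter SLC38A2 was higher and SLC40A1 lower.

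The 3 drugs were compared with each other at their shared dose of 100 nM and time of 1 h, in 3 pairs. Fulvestrant carries a steroid frame with a long side chain, tamoxifen a triphenylethylene frame and raloxifene a benzothiophene frame. No member passed in any pair by edgeR's quasi-likelihood test or DESeq2, and with the replicate block SLC6A6 alone passed, higher with tamoxifen than with fulvestrant. Of all tested genes, 0.462% passed for tamoxifen against fulvestrant (0.453% higher and 0.00856% lower), 0.103% for raloxifene against fulvestrant (0.103% higher and 0% lower) and 0.00428% for tamoxifen against raloxifene (0.00428% higher and 0% lower). At an unadjusted p under 0.05 there were 8, 4 and 5 members in these pairs. SLC22A5, at 37.5 and 45.1 CPM with tamoxifen, 36.7 and 36.0 CPM with raloxifene and 32.1 and 32.9 CPM with fulvestrant, had the smallest adjusted p of the first pair. Its difference was log2 0.34 ± 0.10, edgeR adjusted p = 0.35 for tamoxifen against fulvestrant, with a 95% interval from 0.12 to 0.55. It was log2 0.17 ± 0.11, edgeR adjusted p = 0.98 for raloxifene against fulvestrant, with an interval from -0.06 to 0.39. For tamoxifen against raloxifene it was 0.17 with an interval from -0.04 to 0.39. For SLC7A5 the interval ran from 0.01 to 0.35 for tamoxifen against fulvestrant, from -0.06 to 0.30 for raloxifene against fulvestrant and from -0.11 to 0.23 for tamoxifen against raloxifene. For SLC38A2 these intervals ran from -0.18 to 0.24, from -0.13 to 0.30 and from -0.27 to 0.15. None of these differences passed after adjustment, but the intervals hold differences of up to the bounds given, so the drugs are not shown to act alike.

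Over the 6 groups, the ratio of the highest to the lowest group mean was widest for SLC22A5 at 3.56, SLC7A5 at 2.53, SLC4A8 at 2.38, SLC25A24 at 2.08 and SLC16A6 at 1.81. For SLC22A5, SLC7A5 and SLC25A24 the highest group was estradiol and the lowest fulvestrant. For SLC4A8 and SLC16A6 the lowest group was estradiol. The narrowest ratio was 1.05, in SLC30A9, and that of the heavy chain SLC3A2 was 1.15.

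Other transporter genes, whose symbols do not begin with SLC, were counted from a list of 52, of which 50 were tested. The list holds solute carriers under other names, sodium-potassium pump subunits and partner proteins. Estradiol raised 3 and lowered 1, starvation raised 7 and lowered 9, and fulvestrant and raloxifene lowered 1 each, while tamoxifen changed none. For estradiol this is 8% of the list beside 8.77% of all tested genes, and for starvation 32% beside 18.8%. It is 2% beside 1.16% for fulvestrant and 2% beside 0.569% for raloxifene, each from a single gene. Among the 8055 genes with a mean count of at least 200, 17.6% were called for estradiol and 33.2% for starvation. The depth of the listed genes was not matched to either set. SFXN2, a mitochondrial sideroflexin, changed in 4 of these 5 comparisons, with 1.66 ± 0.061 for estradiol, -1.38 ± 0.062 for starvation, -1.08 ± 0.062 for fulvestrant and -0.59 ± 0.061 for raloxifene on the log2 scale. With tamoxifen against fulvestrant SFXN2 was higher by 0.82 ± 0.062, and with raloxifene against fulvestrant by 0.49 ± 0.063. ANKH, known for the release of ATP and pyrophosphate from cells, rose with estradiol (log2 1.18 ± 0.25, edgeR adjusted p = 0.0036). NIPAL3, a relative of magnesium transporters, fell with estradiol (log2 -0.42 ± 0.070, edgeR adjusted p = 2.8e-04) and rose with starvation (log2 0.61 ± 0.072, edgeR adjusted p = 2.7e-06). BSG, the partner protein of monocarboxylate transporters, fell with starvation (log2 -0.49 ± 0.12, edgeR adjusted p = 0.0066).

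Of the 102 members with a position, on 21 chromosomes, 68 overlap at least 1 other annotated gene, so their counts may hold reads of that gene. Members with no overlapping gene in RefSeq include SLC1A5, SLC7A1, SLC38A1, SLC38A2, SLC25A24, SLC25A25, SLC25A36, SLC25A42, SLC20A1, SLC41A2, SLC39A8 and SLC40A1. The rises of SLC25A24, SLC25A25 and SLC25A42 with estradiol were thus measured on genes that share no annotated span.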

How the data were processed

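Raw counts per Ensembl gene ID for 12 PRO-seq libraries of T47D cells were deposited by the authors as whole numbers, with no normalization. The submitters' processing notes name cutadapt 1.8.1, Bowtie2 2.4.4, SAMtools 1.9 and genome build hg38. How reads were counted (tool, annotation, strand, part of the gene) was not given in the sources used here. Of 60605 gene IDs 60463 were matched to a symbol, and those unmatched, 142 in number, held 0.281% of counts. For symbols with several IDs only the ID with most counts was used, leaving out 1195 IDs and 0.0741% of counts. Libraries were grouped by the descriptions in the labels, with their library numbers 3 and 4 (the titles give 1 and 2). The protocol in the labels mentions complete medium for every library, so starvation rests on the group names and the design text of the series. No source used here names the vehicle for estradiol. Gene positions and promoters came from RefSeq tables of GRCh38.p14, matched by symbol, with a position for 102 of 103 members.

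Counts were fitted in R 4.3.3 with edgeR 4.0.16 as 6 groups in all 12 libraries, with TMM scaling, filterByExpr (23375 genes kept) and the quasi-likelihood test, over 9 comparisons. P-values were adjusted by Benjamini-Hochberg over every gene tested, called at 0.05, and intervals are 95% intervals of the log2 change. The model was tested on simulated data. Alternatives were no TMM scaling, no low-count filter, the library number as a block, DESeq2 1.42.0 with its own size factors, and leaving out each library in turn. Library pairs were checked for duplicate deposition, and their chi-square per gene ran from 1.2 to 2.34.

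The members, substrate groups, marker and transporter lists were chosen with earlier results of these data known. Genes named were, per comparison, up to 12 members with the largest rise and up to 12 with the largest fall among those past the threshold, up to 5 per substrate group by adjusted p, the 8 with the highest count per kb, partners of one complex, and 12 always named. Genes that neighbour or overlap a member, genes of the other transporter list, and SLC24A3, SLC25A44, SLC26A11 and SLC30A9 were chosen for naming after their values were seen. A few genes that the naming rule selects are not reported here, although counts of members include them.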

Additional observations from a re-analysis of the deposited data

How the results depend on the processing

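None of the 106 called values changed direction under any alternative run, and TMM scaling moved the median of all genes by at most 0.04 on the log2 scale. DESeq2 called fewer members, with 12 higher and 4 lower for estradiol against starved vehicle, 8 and 11 for starvation, 12 and 8 for estradiol against complete vehicle, and 1 lower for fulvestrant. Without the low-count filter, which changes the genes tested, 2 members were higher and 5 lower with fulvestrant, 1 and 4 with raloxifene, and 1 and 1 with tamoxifen. The library numbers are shared by all groups, but the labels do not tie a number to a culture or day, and each group has only 2 numbers. Over the 9 pairs of groups with a starved group, r between same-numbered deviations ran from 0.047 to 0.17 and was over 0.1 in 4. The fit without a block was kept as the main fit. Among the 4 complete-medium groups r was over 0.1 in all 6 pairs (0.11 to 0.36), so the drug comparisons are also given with the block. With the replicate block the counts were 20 higher with starvation, 3 higher and 6 lower with fulvestrant, 3 and 7 with raloxifene, 2 and 1 with tamoxifen, and 1 higher with tamoxifen against fulvestrant. Leaving out each library in turn, with a lone library assumed to vary like the other groups, estradiol raised 11 to 14 members and lowered 4 to 5, starvation raised 8 to 11 and lowered 10 to 14, and estradiol against complete vehicle gave 14 to 17 higher and 8 to 12 lower. It gave 0 to 2 higher and 0 to 1 lower with fulvestrant, 0 to 1 and 0 to 1 with raloxifene, and 0 to 0 elsewhere. The cause of these differences was not tested. Of 106 called values, 51 missed the threshold with DESeq2, 11 without the filter, 4 without TMM scaling and none with the block. With 2 libraries a group and counts near 200, small changes of the shallow members were not detectable.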

Other observations

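Several solute carriers known for a role in breast or other tumours lay under the mean count of 200. SLC39A6, a zinc importer long studied as an estrogen-regulated gene of breast cancer, had a mean raw count of 87.4 and did not pass with estradiol (log2 -0.13 ± 0.19, edgeR adjusted p = 0.81). SLC7A11, the cystine-glutamate exchanger light chain, had a mean of 112.5 and did not pass (log2 -0.15 ± 0.16, edgeR adjusted p = 0.70). The lactate carrier SLC16A1 had a mean of only 17 counts (log2 0.12 ± 0.38, edgeR adjusted p = 0.92). SLC25A6, an ADP-ATP carrier of the inner mitochondrial membrane with a mean of 179 counts, rose with estradiol (log2 0.38 ± 0.11, edgeR adjusted p = 0.044). These were named whatever their values.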
